A study of Mus musculus with 4 samples.

Results

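The Krüppel-like factors (KLFs) described here are 10 genes: Klf10, Klf11, Klf15, Klf9, Klf4, Klf6, Klf2, Klf3, Klf13 and Klf12. They were taken by name, as the probe sets with 1 platform gene symbol that is one of these, and each has exactly 1 probe set among 22180 named genes. Expression was measured in primary hepatocytes from 2-month-old male mice, either wild type (WT) or lacking Chrebp (Chrebp-KO, the gene Mlxipl), kept for 16 h in serum-free medium with 25 mM fructose or without it (control). Each of the 4 groups (WT control, WT fructose, Chrebp-KO control and Chrebp-KO fructose) was measured on 1 array, so no value has an error, and no difference below has a test or a replicate check. The design asks how loss of ChREBP, a sugar-responsive transcription factor, alters the response to fructose. The labels give neither the deleted part of Mlxipl, nor the strain, nor how many mice the cells came from, and one of them speaks of liver RNA where the others speak of isolated hepatocytes.

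KLFs are transcription factors whose zinc fingers, at the C-terminal end, bind GC-rich and CACCC-type DNA. Their N-terminal parts differ and set what they recruit: Klf9, Klf10, Klf11 and Klf13 bind the SIN3 corepressor, Klf3 and Klf12 bind the CtBP corepressor, and Klf2, Klf4 and Klf6 are mainly activators. In liver, Klf15 is known for control of gluconeogenesis and amino acid breakdown, Klf9 for its response to glucocorticoid, and Klf10 as a gene regulated by ChREBP that in turn restrains glucose and lipid synthesis.

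Values are log2 levels, where 1 unit is a 2-fold difference. A level of 4.764, the 95th percentile of 1105 olfactory receptor genes, which are taken as silent in hepatocytes, serves as the background, and a gene was counted in a comparison when at least 1 of its arrays lay above it. Klf10, Klf11, Klf9, Klf6, Klf3, Klf13 and Klf12 were above it on all 4 arrays, Klf15 and Klf2 on 3, and Klf4 on 2. Levels of different genes come from different probes and are not compared.

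Promoter sequences are shown for Klf15, Klf4 and Klf9, members that differed 2-fold with fructose in WT cells. Short stretches are shown for Klf11 and Klf6, the other members that hold the E-box defined below. RefSeq's promoter table (GRCm38.p6) had an entry for 9 of the 10 members, all but Klf10. The motifs searched in the 250 bases before the gene start, on both strands, were the E-box CACGTG, a relaxed carbohydrate response element (a pair of degenerate E-boxes), the GC box GGGCGG, the KLF box CACCC, the cAMP response element core TGACGT, the glucocorticoid response element and the ER stress response element. Of these, the relaxed carbohydrate response element can overlap the E-box. Capitals mark the E-box in Klf15 (chr6:90462326-90462575, plus strand), Klf4 (chr4:55532476-55532725, minus strand), Klf11 (chr12:24651137-24651182, plus strand) and Klf6 (chr13:5861426-5861471, plus strand), and the cAMP response element core in Klf9 (chr19:23140976-23141225, plus strand).
Klf15: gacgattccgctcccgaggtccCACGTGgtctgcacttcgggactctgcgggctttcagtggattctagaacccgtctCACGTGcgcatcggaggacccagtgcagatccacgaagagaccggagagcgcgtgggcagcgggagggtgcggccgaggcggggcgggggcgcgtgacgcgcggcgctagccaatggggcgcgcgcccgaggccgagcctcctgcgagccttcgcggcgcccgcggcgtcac
Klf4: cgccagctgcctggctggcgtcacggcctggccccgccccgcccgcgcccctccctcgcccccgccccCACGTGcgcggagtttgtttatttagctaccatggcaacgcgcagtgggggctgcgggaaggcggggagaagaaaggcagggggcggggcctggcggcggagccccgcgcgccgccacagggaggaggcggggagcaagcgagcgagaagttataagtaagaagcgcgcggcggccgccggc
Klf9: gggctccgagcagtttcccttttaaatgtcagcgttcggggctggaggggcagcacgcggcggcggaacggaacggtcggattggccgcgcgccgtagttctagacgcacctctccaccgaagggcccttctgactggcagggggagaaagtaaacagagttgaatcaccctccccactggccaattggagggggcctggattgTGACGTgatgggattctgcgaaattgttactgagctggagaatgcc
Klf11: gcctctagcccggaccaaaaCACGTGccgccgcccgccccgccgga
Klf6: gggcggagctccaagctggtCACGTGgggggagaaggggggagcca

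The E-box, the kind of site that basic helix-loop-helix factors such as ChREBP bind, was present in 4 of the 9 promoters (44.4%) and in 6.02% of all 32851 promoters. Klf15 held it 228 and 172 bases before the start, Klf4 182, Klf11 214 and Klf6 43 bases before it. The G and C content of these 4 ran from 64.8% in Klf6 to 76.8% in Klf11, and the promoters without an E-box span 48% in Klf12 to 78.4% in Klf3. The shares of all promoters given here are not matched for G and C content, so they cannot show an excess among the members. The GC box was found in 7 of the 9 (32.7% of all promoters), all but Klf12 and Klf9, and the KLF box in 6 (52% of all). Klf9 and Klf13 held the cAMP response element core (6.47% of all), 46 and 56 bases before the start. The relaxed carbohydrate response element (0.387% of all), the glucocorticoid response element (0.00913%) and the ER stress response element (0.113%) were in 0 of the 9. A match is a run of letters in a short window and does not show binding.

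The cells carried hepatocyte markers: 10 of 11 measured were above background, with Alb, the albumin gene, at log2 levels of 12.58 to 12.66, while Ass1 was below it on every array (3.85 to 4.36). Mlxipl, which the knockout targets, was at log2 levels of 8.08 in WT cells without fructose and 8.43 with it, and 7.42 and 7.37 in Chrebp-KO cells without and with it, so it was lower in the knockout cells but not at background, and its probes may lie outside the deleted part. Of 16 endothelial markers 11 were above background, of 13 macrophage markers 10, of 12 stellate cell and fibroblast markers 4, and of 5 cholangiocyte markers 1 (Sox9). Over all genes counted, 6.11% were at least 2-fold different with fructose in WT, 2.86% with fructose in Chrebp-KO, 0.233% between genotypes in control medium and 1.28% between them in fructose medium.

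**Figure D1:**
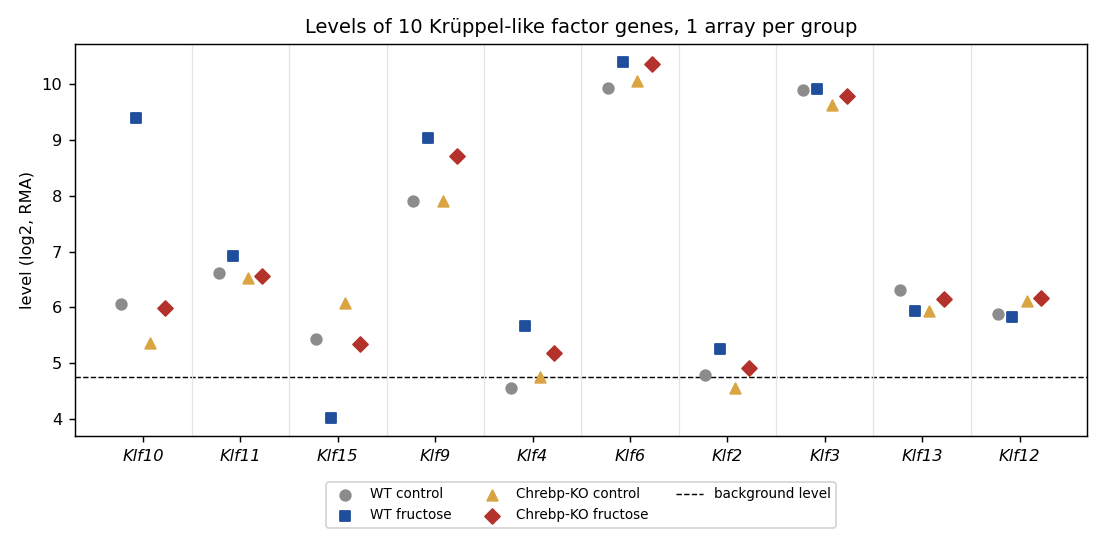
Log2 level (vertical axis) of each of the 10 KLF genes on the 4 arrays, 1 point per array, with the background level of 4.764 as a dashed line. Klf10 stands at 9.39 on the WT fructose array and between 5.37 and 6.06 on the others, and Klf15 is below the background only there.

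Klf10, the TGF-beta-inducible repressor also called TIEG, differed most of the 10 members. Its log2 level was 6.06 in WT cells without fructose and 9.39 with it, and 5.37 and 5.99 in Chrebp-KO cells without and with it. The WT fructose array stood apart, and the other three spanned less than 1 log2 unit. With fructose its level was higher by 3.33 (log2) in WT and by 0.62, or 1.54-fold, in Chrebp-KO. Ranked among the genes higher with fructose, Klf10 was number 10 of 10814 genes tested in WT and number 575 of 10752 in Chrebp-KO. In Chrebp-KO cells it was 1.62-fold lower in control medium (rank 67 of 10720 among lower genes) and 10.5-fold lower in fructose medium (rank 3 of 10688). The fructose effect in Chrebp-KO minus that in WT was -2.71 on the log2 scale, rank 4 of 11050 among the lower values. The WT fructose array enters the WT fructose difference, the genotype difference in fructose medium and the difference of effects, so these are not separate measurements of the high level.

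Klf11, the closest relative of Klf10 and likewise a SIN3-binding repressor, had log2 levels of 6.62 in WT cells without fructose and 6.92 with it, and 6.53 and 6.56 in Chrebp-KO cells without and with it. Its order over the arrays was that of Klf10 and also of Klf3, but its whole range was 0.39 where that of Klf10 was 4.02. With fructose it was higher by 0.29 (log2) in WT and by 0.04 in Chrebp-KO, and it was lower in Chrebp-KO by a log2 difference of -0.10 in control medium and -0.36 in fructose medium.

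Klf9, a glucocorticoid- and thyroid hormone-responsive factor, was higher with fructose in both genotypes. Its log2 levels were 7.91 in WT cells without fructose and 9.02 with it, and 7.89 and 8.71 in Chrebp-KO cells without and with it. Both fructose arrays lay above both control arrays, and the control arrays were 0.01 apart. The difference with fructose was 2.17-fold in WT and 1.76-fold in Chrebp-KO, ranks 244 of 10814 and 298 of 10752 among the higher genes. Between genotypes Klf9 differed by -0.32 (log2) in fructose medium, and the fructose effect was smaller in Chrebp-KO by a log2 difference of -0.30.

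Klf13, known from lymphocytes as an activator of the chemokine gene Ccl5, had log2 levels of 6.31 in WT cells without fructose and 5.93 with it, and 5.94 and 6.15 in Chrebp-KO cells without and with it. It was lower with fructose in WT (-0.38) and higher in Chrebp-KO (0.21), and the difference of these effects, 0.59, was rank 309 of 11050 among the higher values. All 4 levels lay within 0.38 of each other.

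Klf15, the regulator of gluconeogenesis and amino acid breakdown, showed the largest difference in the opposite direction to Klf10. Its log2 level was 5.43 in WT cells without fructose and 4.02 with it, and 6.08 and 5.35 in Chrebp-KO cells without and with it. It was lower with fructose in both genotypes and higher in Chrebp-KO in both media. Because the WT fructose value lay below background, the level there was at least 1.59-fold lower than in WT control and at least 1.51-fold lower than in Chrebp-KO fructose, while the measured log2 differences were -1.41 and, for Chrebp-KO minus WT, 1.33. In Chrebp-KO, where both arrays were above background, the difference with fructose was 1.65-fold (rank 345 of 10752 among lower genes). In control medium it was 1.56-fold higher in Chrebp-KO, rank 32 of 10720 among higher genes. The fructose effect in Chrebp-KO minus that in WT was 0.69 (log2), and -0.06 with values raised to the background level, so its direction rests on the WT fructose value below background.

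**Figure D2:**
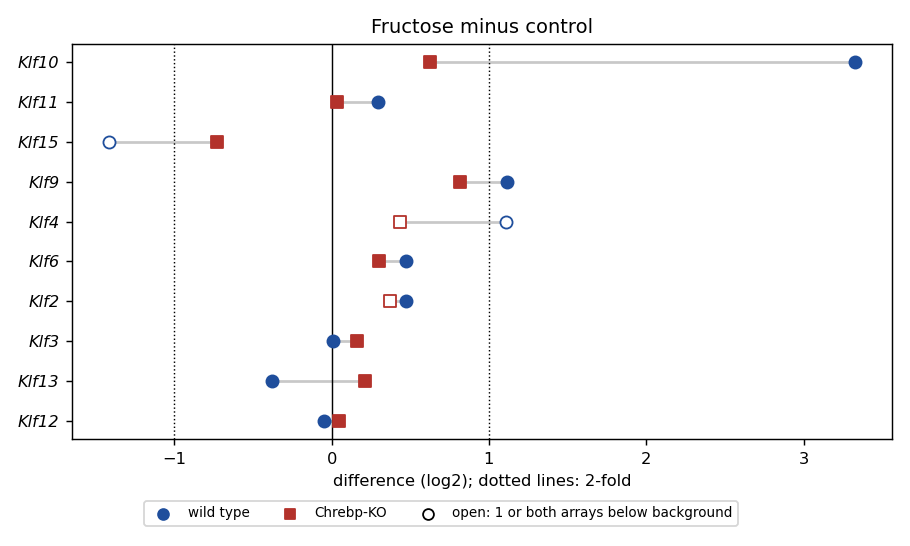
Fructose minus control (log2, horizontal axis) for the 10 members in WT (circles) and Chrebp-KO (squares), with open symbols where 1 or both arrays compared lay below background and dotted lines at 2-fold. Klf10 has the widest gap between genotypes (3.33 against 0.62), and the Klf9 values lie close together (1.12 and 0.81).

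Klf4, a pluripotency and early-response factor, was low in control cells. Its log2 levels were 4.56 in WT control and 4.76 in Chrebp-KO control, both under the background of 4.764, and 5.67 in WT fructose and 5.19 in Chrebp-KO fructose. It was at least 1.87-fold higher with fructose in WT and at least 1.35-fold in Chrebp-KO, and no fold is given between the control arrays. The level in fructose medium was 1.39-fold lower in Chrebp-KO.

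Klf2, the flow-responsive factor of endothelium, had log2 levels of 4.79 in WT cells without fructose and 5.27 with it, and 4.55 and 4.92 in Chrebp-KO cells without and with it, close to background throughout. It was 1.39-fold higher with fructose in WT and at least 1.12-fold in Chrebp-KO. It was lower in Chrebp-KO by a log2 difference of -0.24 in control medium, where the array of that genotype lay below background, and -0.34 in fructose medium. Endothelial markers moved with it between genotypes: of 11 counted, 0 were above 0 in control medium and 3 in fructose medium, with medians of -0.41 and -0.27 (all genes -0.01 and 0.01). Their summed level was 10.18 in WT cells without fructose and 10.03 with it, and 9.73 and 9.71 in Chrebp-KO cells without and with it (log2 of the sum over all 16 measured). With fructose, by contrast, their median was -0.10 in WT and 0.03 in Chrebp-KO. Macrophage markers were also lower in Chrebp-KO, 8 of 9 counted in control medium (median -0.36) and 9 of 10 in fructose medium (-0.51), but their summed level went the other way in fructose medium. It was 11.47 (log2) in WT cells without fructose and 11.25 with it, and 11.41 and 11.47 in Chrebp-KO cells without and with it, and Cd68, the 1 counted marker above 0 in each medium, was higher in Chrebp-KO by 0.08 and 0.44. The part of these cells in the Klf2 and Klf4 values was not tested, and in such bulk RNA fewer cells of a type and less RNA per cell cannot be told apart. Of the 6 known endothelial targets of Klf2 and Klf4, Nos3 and Tek were below background on every array. Of the 4 counted, 3 were lower in Chrebp-KO in each medium, with medians of -0.28 in control and -0.32 in fructose medium, among them Cdh5, the VE-cadherin gene (-0.68 and -0.35), which is also one of the endothelial markers. With fructose their medians were 0.11 in WT and 0.17 in Chrebp-KO. The list takes no account of whether Klf2 and Klf4 raise or lower a target, so its counts and medians have no expected direction. Thbd, the thrombomodulin gene, had log2 levels of 5.03 in WT cells without fructose and 5.50 with it, and 5.13 and 5.09 in Chrebp-KO cells without and with it.

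Klf6, an early-response activator also induced in stellate cells, was higher with fructose by a small amount in both genotypes. Its log2 levels were 9.92 in WT cells without fructose and 10.39 with it, and 10.05 and 10.35 in Chrebp-KO cells without and with it. The fructose arrays lay above the control arrays, by 1.39-fold in WT and 1.23-fold in Chrebp-KO, and the genotypes differed by 0.13 and -0.04 in the respective media. Stellate cell and fibroblast markers had medians of -0.03 and 0.01 with fructose in WT and Chrebp-KO over the 4 counted, and 8 of 12 lay below background on every array.

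The CtBP-binding repressors had the narrowest ranges over the 4 arrays, 0.28 for Klf3 and 0.33 for Klf12 (log2). Klf3 had log2 levels of 9.89 in WT cells without fructose and 9.90 with it, and 9.62 and 9.78 in Chrebp-KO cells without and with it, both WT arrays being above both Chrebp-KO arrays by small amounts. Klf12, first described as a repressor of the AP-2 alpha gene, had levels of 5.89, 5.84, 6.12 and 6.16 in the same order, with the Chrebp-KO arrays above those of WT. In control medium their genotype differences of -0.27 and 0.23 were nevertheless larger than those of Klf9, Klf11 and Klf6. Fructose differences were 0.01 (with the sign turned by median centring or quantile normalization) and -0.05 in WT and 0.16 and 0.05 in Chrebp-KO for Klf3 and Klf12 respectively.

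Counted at 2-fold, 4 of the 10 members differed with fructose in WT: Klf10, Klf9 and Klf4 were higher (3.1% of 10814 genes were) and Klf15 lower (3.01%). Only Klf10 and Klf9 among these rest on 2 arrays above background, and with values raised to the background level they are the 2 that remain. The median difference over the 10 was 0.38, against -0.03 over all genes tested. In Chrebp-KO 0 of the 10 reached 2-fold (2.86% of all genes did). Their median there was 0.26 against 0 over all genes, and 9 of the 10 were above 0. In control medium 0 of the 9 members counted differed 2-fold between genotypes (0.233% of all genes did). In fructose medium 2 of the 10 did, Klf10 lower (0.739% of 10688 genes were) and Klf15 higher (0.543%). Klf15 is counted there through its WT fructose value below background, and only Klf10 remains with values raised to that level. For the difference of effects, 1 of 10, Klf10, was past 2-fold (1.03% of 11050 genes in either direction). Since the members were chosen with these results known, the counts describe them and are not evidence about the family.

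**Figure D3:**
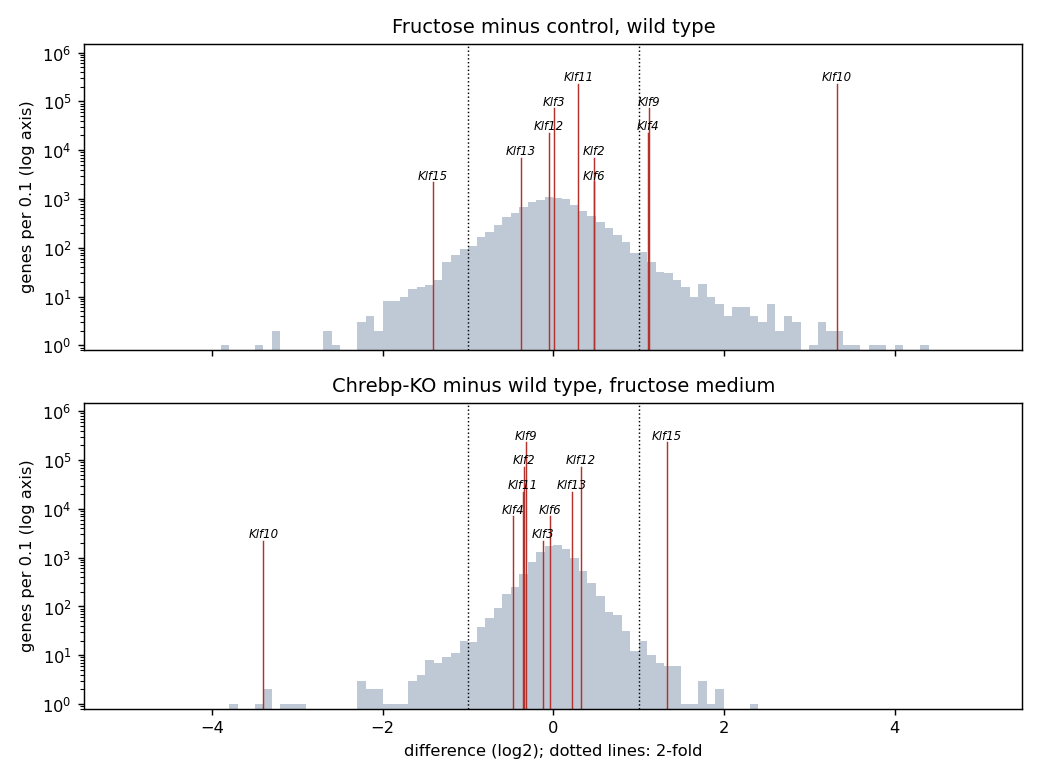
Number of genes (vertical axis, log scale, per bin of 0.1) by log2 difference, for fructose minus control in WT (upper panel) and Chrebp-KO minus WT in fructose medium (lower panel), with red lines at the 10 members, whose height has no meaning. Klf10 lies far out in both panels (3.33 and -3.40) and Klf15 on the opposite side (-1.41 and 1.33), while the others lie within 1.12 of 0.

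The genotype differences are set out by medium in the plot of Chrebp-KO minus wild type. In control medium the 9 members counted lay between -0.69 (Klf10) and 0.65 (Klf15), and in fructose medium the 10 lay between -3.40 and 1.33 for the same genes. With values raised to the background, the Klf15 difference in fructose medium was 0.59, since its WT fructose level lay below background. Klf10, Klf11, Klf9, Klf2 and Klf3 were below 0 in both media, and Klf15 and Klf12 above 0 in both. Klf10 and Klf15 were also the 2 members that reached 1.5-fold in control medium, where 1.58% of all genes did.

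**Figure D4:**
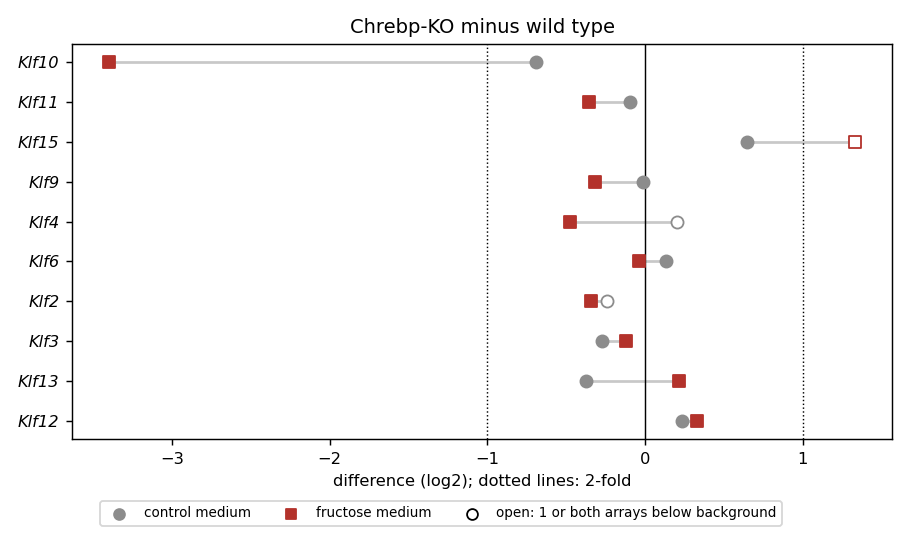
Chrebp-KO minus WT (log2, horizontal axis) for the 10 members in control medium (circles) and fructose medium (squares), with open symbols where 1 or both arrays lay below background and dotted lines at 2-fold. Klf10 moves from -0.69 to -3.40 and Klf15 from 0.65 to 1.33, the latter with its WT fructose level below background. The remaining members stay between -0.47 and 0.33.

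The genes whose pattern over the 4 arrays was most like that of Klf10 were found by the root mean square distance of levels centred on each gene's mean, among 10262 genes. They were Rgs16, a regulator of G-protein signalling (distance 0.13), Prss8, a membrane serine protease (0.17), G6pc, which encodes glucose-6-phosphatase (0.21), Txnip, an inhibitor of thioredoxin (0.31), Fgf21, a liver hormone (0.39), and Angptl8, a secreted inhibitor of lipoprotein lipase (0.44). Rgs16 had log2 levels of 6.82 in WT cells without fructose and 9.97 with it, and 5.77 and 6.62 in Chrebp-KO cells without and with it, and G6pc 4.77, 8.37, 4.48 and 4.59 on the same arrays. In Rgs16, as in Klf10, the WT fructose level stood alone and Chrebp-KO control was the lowest, whereas both Chrebp-KO values of G6pc lay below background. Among the genes nearest to Klf15 were Gpam, the mitochondrial glycerol-3-phosphate acyltransferase gene (distance 0.15), Arhgap18 (0.17), Gsta4, a glutathione transferase (0.18), Abcc4, an efflux transporter (0.19), Crim1 (0.19) and Nme1, a nucleoside diphosphate kinase (0.19). These distances use the Klf15 value of 4.02 on the WT fructose array, which lay below background, as did those of Abcc4 (4.73) and Nme1 (4.24) there, so the order of these genes is not firm. Gpam had log2 levels of 9.19 in WT cells without fructose and 8.08 with it, and 9.75 and 9.16 in Chrebp-KO cells without and with it. Only 2 of the 6 genes remained in each case when likeness was taken as Pearson's correlation among the 965 genes with a range of at least 1 log2 unit, a narrower set that holds all the genes just named, Rgs16 and Prss8 for Klf10 and Gpam and Arhgap18 for Klf15. These are the same 4 arrays throughout, and likeness over 4 values is a description.

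**Figure D5:**
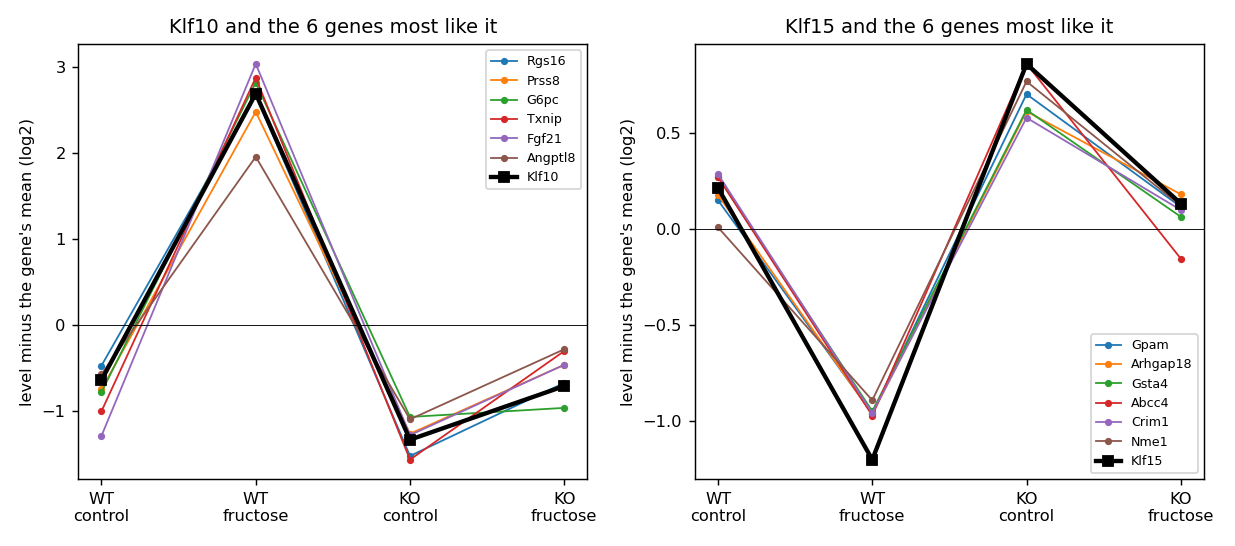
Level minus the gene's mean over the 4 arrays (log2, vertical axis) for Klf10 (left, black) and Klf15 (right, black) with the 6 genes nearest to each in colour, over the 4 groups. Genes near Klf10 peak on the WT fructose array, and genes near Klf15 are lowest there and highest on the Chrebp-KO control array. The lines join separate arrays and show no time course.

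Of the 7 further KLF genes measured, Klf5, Klf7, Klf14 and Klf16 were counted, and Klf1, Klf8 and Klf17 lay below background on every array. Of those counted, 0 were at 2-fold in any comparison, where 0.233% to 6.11% of all genes were. Klf16, another SIN3-binding member, had the largest fructose differences of these, 0.71 in WT and 0.76 in Chrebp-KO, the latter above the 0.62 of Klf10. Its log2 levels were 6.75 in WT cells without fructose and 7.46 with it, and 6.83 and 7.59 in Chrebp-KO cells without and with it. Of 8 measured SP genes, the relatives of KLFs that bind GC boxes, only Sp1 and Sp3 were above background, and Sp1 was higher with fructose by 0.41 in WT and 0.51 in Chrebp-KO.

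Of the partners and modifiers of KLFs, 11 were counted and 1 reached 2-fold, Hdac1, a histone deacetylase of the SIN3 complex. Its log2 level was 8.53 without fructose and 7.53 with it in WT, just past 2-fold (3.01% of all genes were 2-fold lower). In Chrebp-KO it was 8.61 and 7.97 (-0.64). Kat2b, an acetyltransferase, was lower by -0.82 and -0.60 in the same comparisons. Sin3a itself differed by 0.01 and -0.13, Ctbp1 by -0.16 and 0.13, and Siah1a, a ubiquitin ligase, by 0.25 and 0.49. Over the 11, the median was -0.03 in WT, equal to that of all genes.

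TGF-beta pathway genes, listed because Klf10 is an early target of that pathway, held 0 of 16 counted at 2-fold with fructose in either genotype. Over all genes 6.11% were 2-fold different in WT and 2.86% in Chrebp-KO, so a count of 0 among 16 is near these shares. The part of this pathway in the Klf10 values was not tested. Their medians were 0.07 in WT and 0.24 in Chrebp-KO (-0.03 and 0 over all genes). Smurf1, a ubiquitin ligase for SMADs, was higher by 0.69 in WT and 0.84 in Chrebp-KO. The early-response inhibitors differed little: Smad7 by -0.30 and -0.23, and Skil by -0.05 and 0.28. In control medium 14 of 15 were lower in Chrebp-KO (median -0.17 against -0.01 over all genes), including the receptor gene Tgfbr2 at -0.40 and Tgfbi at -0.59. In fructose medium 11 of 16 were lower (median -0.07 against 0.01). Endothelial and macrophage markers were lower in the same control-medium comparison (11 of 11 and 8 of 9, medians -0.41 and -0.36), and their part in the TGF-beta list was not tested.

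Glucocorticoid-responsive genes, listed for Klf9 and Klf15, went both ways, with 9 of 13 counted above 0 with fructose in WT and 4 below. Of the 13, 2 were at least 2-fold higher with fructose in WT (3.1% of all genes were), Tat, tyrosine aminotransferase (2.22), and Per1, a clock gene (1.43). In Chrebp-KO 3 were (1.68% of all genes), Tat (2.01), Per1 (1.45) and Pck1, the gluconeogenic PEP carboxykinase (1.61). Fkbp5, a glucocorticoid receptor cochaperone, differed by 0.26 and -0.07, and Tsc22d3 by -0.10 in WT and by at least 0.07 in Chrebp-KO, where its control level of 4.68 lay below background. The receptor gene Nr3c1 differed by 0.04 in WT and 0.17 in Chrebp-KO.

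Of amino acid catabolism and urea cycle genes, several of which are known targets of Klf15, 12 were counted. With fructose in WT 3 were at least 2-fold higher (3.1% of all genes were), namely Tat, Cps1 (1.41) and Hpd (1.24). In that comparison 1 was 2-fold lower (3.01% of all genes were), Gpt2 (-1.24). In Chrebp-KO the same Tat (2.01), Cps1 (1.40) and Hpd (1.14) were higher, with Arg1 (1.12), and Gpt2 was lower (-1.13). The median of the list was 0.55 in WT and 0.35 in Chrebp-KO (-0.03 and 0 over all genes), in the comparisons where Klf15 was lower. Between genotypes, where Klf15 was higher in Chrebp-KO, it was 0.14 in control medium and 0.03 in fructose medium (-0.01 and 0.01 over all genes). The WT fructose level of Klf15 lay below background, and the part of Klf15 in the levels of these genes was not tested. Prodh, proline dehydrogenase, was higher by 0.57 in WT and by 0.04 in Chrebp-KO.

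Of glucose and lipid synthesis genes, linked to Klf10 and its regulator, 13 were counted in WT. With fructose, 7 of them were at least 2-fold higher (3.1% of all genes were): G6pc, Acaca, Acly, Fasn, Gckr, Slc2a2 and Srebf1. In the same comparison 0 were 2-fold lower (3.01% of all genes were), and the median was 1.02 against -0.03 over all genes. Pklr and Scd1 differed by -0.32 and -0.03, and Pck1 was highest in Chrebp-KO fructose (7.40, against 7.13 in WT fructose). In Chrebp-KO 12 were counted, since G6pc lay below background on both arrays, so the medians of the genotypes cover different sets. Of these, 1 was 2-fold higher, Pck1 (1.68% of all genes were), and 1 lower, Pklr (-1.05, with 1.18% of all genes lower). The median was 0.05 against 0 over all genes. Between genotypes in fructose medium, 9 of 13 were at least 2-fold lower in Chrebp-KO (0.739% of all genes were). The median was -1.39 against 0.01 over all genes. The genes lower there included Srebf1 (-1.01), Elovl6 (-1.10) and Me1 (-1.41) besides the enzymes Acaca (-1.99), Acly (-2.20) and Fasn (-1.68). Most of these genes are known ChREBP targets, and their levels cannot say how Klf10 relates to them.

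Early-response and clock genes were examined because Klf4, Klf6, Klf9 and Klf10 respond early to stimuli or cycle in liver. Over all genes, 3.1% were at least 2-fold higher with fructose in WT and 1.68% in Chrebp-KO. Of 14 early-response genes counted, Atf3 (2.85) and Zfp36 (1.68) were so in WT, and both also in Chrebp-KO (2.29 and 1.09). The median was 0.64 in WT and 0.47 in Chrebp-KO (-0.03 and 0 over all genes). Egr1 differed by 0.65 and 0.41 and Fos by 0.65 and 0.91. Of 15 clock genes, Nfil3 (1.96), Bhlhe41 (1.47) and Per1 were at least 2-fold higher in WT, and Nfil3 (1.05) and Per1 in Chrebp-KO. The clock list had medians of 0.49 in WT and 0.31 in Chrebp-KO (-0.03 and 0 over all genes). Below 0 were 4 of the 15 in WT, the lowest at -0.75, and 2 in Chrebp-KO, the lowest at -0.57. Nr1d1 and Dbp, also clock genes, differed by 0.49 and 0.55 in WT and by 0.41 and 0.47 in Chrebp-KO. Arntl, the core activator, differed by -0.19 and 0.17.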

How the data were processed

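Biotin-labelled material made from 400 ng of RNA was measured on 1-colour whole-transcript arrays, per the labels' protocols. The authors deposited log2 values per probe set, made with RMA and R 3.4.0, per the submitters' processing notes. RMA gives every array nearly the same distribution and so hides a change common to all genes. The array's annotation version is not given in the sources used here.

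Of 41345 probe sets, 23521 had 1 gene symbol in the platform table, and 23328 of these were matched by Entrez number to RefSeq (GRCm38.p6). Probe sets of a gene were averaged in log2, which left 22180 genes, of which 10368 to 10447 lay above background on each array. Differences for 5 comparisons were counted at 2-fold. With 1 array per group there is no test, and precision is limited by the number of arrays. Where 1 array lay below background, a fold is "at least", against the background. The code was tested on simulated data.

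The members, lists, motifs and named genes were chosen with earlier results of these data known. Named are the members, Mlxipl, up to 4 genes per list with the largest difference, and the 6 genes most like Klf10 and Klf15, leaving out predicted genes and small RNAs. Further list genes are named for their known roles or to complete a count. Python 3.11.15, numpy 2.4.6, pandas 2.3.3 and statsmodels 0.14.6 were used. Alternatives were median centring, repeated quantile normalization, loess (span 0.3), no filter or a background 1 log2 unit higher, 1.5-fold and 3-fold thresholds, the brightest probe set, and values raised to the background.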

Additional observations from a re-analysis of the deposited data

Results flagged for a closer look

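Some fructose effects ran in opposite directions in the 2 genotypes, and some genotype differences in the 2 media. With 1 array per group none of these was tested. Klf13 differed with fructose by -0.38 (log2) in WT and 0.21 in Chrebp-KO, and between genotypes by -0.38 in control medium and 0.22 in fructose medium. Klf12 differed with fructose by -0.05 in WT and 0.05 in Chrebp-KO, and Mlxipl by 0.36 and -0.04. Klf6 differed between genotypes by 0.13 in control medium and -0.04 in fructose medium. Members and Mlxipl were taken at any size. Beyond them, only the listed genes and those most like Klf10 and Klf15 were searched, at 1.5-fold or more in both comparisons. Slc2a2 differed with fructose by 1.04 in WT and -0.98 in Chrebp-KO, and Tkfc by 1.28 and -0.68. Other listed genes had opposite signs at smaller sizes. Opposite signs were common: 21.6% of 10516 genes had them for the fructose effects (2 of 10 members) and 40.6% of 10358 for the genotype differences (2 of 9 members).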

How the results depend on the processing

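No paired analysis was possible because each group has 1 array, and for the same reason no array could be left out. Members 2-fold different with fructose in WT numbered 4, but 2 with values raised to the background and 1 at 3-fold. With the background 1 log2 unit higher they numbered 2, since Klf15 and Klf4 were then no longer counted. In Chrebp-KO the count was 0, and 3 at 1.5-fold. Between genotypes it was 0 in control medium, and 2 at 1.5-fold. In fructose medium it was 2, but 1 with the higher background (Klf15 not counted), with values raised to the background and at 3-fold. For the difference of effects it was 1, and 4 at 1.5-fold. The other alternatives left each of these counts as it was. Klf10 was past 2-fold with fructose in WT, between genotypes in fructose medium and in the difference of effects under every alternative. Median centring, quantile normalization and loess moved no member's difference by more than 0.053 (log2), and raising values to the background moved 9 of 50 differences by over 0.1. The latter turned the difference of effects of Klf15 from 0.69 to -0.06, since its WT fructose level lay below background. Over all genes, the counts for the 5 comparisons in the order above were 661, 308, 25, 137 and 114 at 2-fold. They were 2195, 1275, 169, 568 and 603 at 1.5-fold, and 160, 65, 2, 29 and 22 at 3-fold. As shares these were 6.11%, 2.86%, 0.233%, 1.28% and 1.03% at 2-fold. At 1.5-fold the shares were 20.3%, 11.9%, 1.58%, 5.31% and 5.46%, and at 3-fold 1.48%, 0.605%, 0.0187%, 0.271% and 0.199%. With the higher background, 7.44% of 8252 genes were 2-fold different with fructose in WT. By Pearson's correlation among genes with a range of at least 1 log2 unit, 2 of the 6 genes most like Klf10 and 2 of the 6 most like Klf15 remained. The narrower gene set holds all of these genes, so by distance alone it would name them again.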

Other observations

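By Pearson's correlation over the 4 arrays, among 965 genes with a range of at least 1 log2 unit, the 6 genes nearest to Klf10 were Srebf1, Fasn, Glul, the glutamine synthetase gene, Rgs16, Prss8 and Fabp5. Their differences with fructose in WT were 1.02, 1.76, 1.05, 3.14, 3.22 and 1.51 (log2), so this measure also names genes of the same shape and smaller size. The genes nearest to Klf15 by the same measure were Gpam, Pkp2, Camk1, Arhgap18, Abca6 and Mrgpre, with differences of -1.11, -0.80, -1.01, -1.14, -0.81 and -0.80. Correlations over 4 arrays are given as a description.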
